A study of Mus musculus with 12 samples.

Results

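Complement genes were followed in Ras-driven sarcomas that carried Vnn1, a catalytically deficient Vnn1, or no Vnn1. The set was chosen by gene symbol, with earlier results of these data known, and listed 9 genes. They are C1qa, C1qb, C1qc and C4b of the classical pathway, the central component C3, Cfb and Cfp of the alternative pathway, and the receptors C3ar1 and C5ar1. Of these 9 genes, 8 were measured and passed the filter on low values, out of 16573 genes tested, and C3 was not analysed here. Where a gene had several probesets, the one with the highest mean was taken, and its log2 value was the level of the gene.

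RNA from 12 subcutaneous tumors was hybridized to Affymetrix mouse gene arrays. There were 4 R, 4 VdR and 4 VR tumors, which carry the numbers 1, 2, 4 and 5 within each group. All tumors grew from grafts of J2A, a myofibroblast line of C57BL/6 mice deficient for p16, p19 and Vnn1, transformed by a retroviral vector that carried GFP-tagged oncogenic H-Ras. R cells received the vector with Ras and no Vnn1, VR cells received intact Vnn1 together with Ras, and VdR cells received Vnn1dCr, which lacks pantetheinase activity, together with Ras. The cytomegalovirus promoter drives Vnn1 in these vectors, so its expression is not controlled as in tissue. The vectors were put into the cultured line before grafting, and not into cells of the host. The hosts were nude mice, which lack mature T cells and keep myeloid cells, B cells, NK cells and stroma, so a tumor holds grafted and host cells. The ages of the mice were not given in the sources used here, and the labels put harvest between 2 and 3 weeks after the graft, according to how fast a tumor grew, whereas the study's methods give 1 fixed day for all tumors on the arrays. The study reports that R and VdR tumors grew aggressively and VR tumors poorly. Growth therefore cannot be told apart from the vector where VR tumors are compared with R or VdR tumors. The labels speak of sorted cells in the text on RNA extraction, whereas the study describes whole tumors. No separate transduction was described for each tumor, so the tumors of a group stand for repeated grafts of 1 transduced population of J2A. The p-values measure the spread between these tumors. As described, the vector and the population that received it cannot be told apart.

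Vnn1 was used to check the labels. Its log2 value was 5.53 to 5.83 without the transgene (R), 11.37 to 11.73 with the deficient form (VdR) and 10.54 to 11.26 with the intact form (VR), and the 3 groups did not overlap. The transgene was thus measured at a lower level in VR than in VdR tumors (log2 difference -0.69, SE 0.14, limma with Benjamini-Hochberg adjusted p = 0.0292), and this difference cannot be told apart from that in catalytic activity. Arrays of a group correlated with each other at 0.988 to 0.996 across genes, which are not independent replicates. The 19 macrophage markers measured had a mean log2 value, used below as a macrophage score, of 8.98 to 9.33 in the R group, against 10.07 to 10.32 in the VdR group and 9.90 to 10.21 in the VR group.

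Complement is a cascade of plasma and tissue proteins that tags cells and debris for removal and attracts leukocytes. In the classical pathway, C1q binds immune complexes or altered surfaces and its proteases cleave C4 and C2, whereas in the alternative pathway factor B supplies the protease of the convertase and properdin holds that convertase together. Small fragments released by the cascade act on the C3a and C5a receptors of leukocytes. Most circulating components come from the liver, whereas C1q is made mainly by macrophages and other myeloid cells, and properdin is made by leukocytes.

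The 3 C1q chain genes lie side by side on mouse chromosome 4 in the order C1qa, C1qc, C1qb, with 0 protein-coding genes between neighbours. Promoter sequences were given by RefSeq (GRCm38.p6) for 5 of the 8 measured genes, and not for C1qa, C4b and Cfb. The 250 bases before the start were searched on both strands for GAAANNGAA, the core of an interferon response element, TTCNNNGAA, a gamma-activated site, GAGGAA, the core of a PU.1 box, and GGGANNTTC, part of an NF-kB site. The promoters shown are those with a match, which are C1qb, C1qc and C5ar1, with the match in capitals. These genes were called higher in both comparisons with R, but so were Cfp and C3ar1, whose promoters held no match. All 3 are on the minus strand and are written 5' to 3' in the direction of the gene, C1qb at chr4:136886201-136886450, C1qc at chr4:136892915-136893164 and C5ar1 at chr7:16259339-16259588.
C1qb: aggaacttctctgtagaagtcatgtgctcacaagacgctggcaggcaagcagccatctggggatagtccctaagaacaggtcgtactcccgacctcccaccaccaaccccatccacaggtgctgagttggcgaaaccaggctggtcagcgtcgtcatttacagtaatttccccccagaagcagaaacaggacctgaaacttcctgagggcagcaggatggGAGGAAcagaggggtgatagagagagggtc
C1qc: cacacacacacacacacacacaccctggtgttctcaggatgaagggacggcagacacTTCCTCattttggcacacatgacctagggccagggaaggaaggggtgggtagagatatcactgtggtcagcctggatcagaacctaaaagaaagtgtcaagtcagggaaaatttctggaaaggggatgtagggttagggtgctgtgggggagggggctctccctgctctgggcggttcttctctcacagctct
C5ar1: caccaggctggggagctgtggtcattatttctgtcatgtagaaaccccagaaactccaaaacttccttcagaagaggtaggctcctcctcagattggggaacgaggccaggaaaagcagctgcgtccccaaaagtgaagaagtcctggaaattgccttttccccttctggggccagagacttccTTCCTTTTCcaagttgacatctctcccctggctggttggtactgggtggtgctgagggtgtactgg

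C1qb held GAGGAA at 30 to 25 bases before the start and C1qc held it on the opposite strand, as TTCCTC, at 193 to 188 bases before the start. C5ar1 held GAAANNGAA on the opposite strand, read as TTCCTTTTC, at 66 to 58 bases before the start. The Cfp and C3ar1 promoters held none of the 4 motifs in this window. Of all 32851 promoters of the same length, 23.3% held GAGGAA, 7.13% held GAAANNGAA, 7.02% held TTCNNNGAA and 3.23% held GGGANNTTC. A match is a description of these letters and not of binding.

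The question of the first comparison was which complement genes differed when intact Vnn1 was added to Ras. In VR tumors all 8 measured genes were higher than in R tumors on average, and 7 passed the test, the exception being Cfb. C4b rose 3.36-fold (95% confidence interval 1.73 to 6.53), Cfp 2.30-fold (1.75 to 3.02) and C3ar1 2.10-fold (1.63 to 2.72), while C1qa, C1qc, C5ar1 and C1qb rose 1.55-fold to 1.81-fold. The background for these 7 of 8 is that 13.6% of all genes tested were called higher in this comparison and 7.48% lower (limma, Benjamini-Hochberg adjusted p under 0.05). The genes and marker lists were chosen with earlier results of these data known. Here and below, such shares are therefore a background and not a test of an excess. The median log2 fold change of the complement genes was 0.96, beside -0.01 for all genes tested. In RNA from whole tumors, more cells of a type and more RNA per cell cannot be told apart, and 15 of the 19 macrophage markers were also called higher.

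The next comparison asked the same of Vnn1 without catalytic activity. In VdR tumors 6 of the 8 genes were higher than in R tumors by the test, and C4b and Cfb were not called. Cfp rose 2.49-fold (1.89 to 3.27), C1qc 2.41-fold (1.97 to 2.94), C1qa 2.40-fold (1.93 to 2.98) and C5ar1 2.34-fold (1.80 to 3.05), with C3ar1 at 2.01-fold and C1qb at 1.80-fold. Of all genes tested, 6.58% were called higher in VdR than in R tumors and 2.81% lower. The median log2 fold change was 1.23 over the complement genes and 0.0038 over all genes, and 18 of the 19 macrophage markers were called higher. Both comparisons share the R tumors, so their values are not independent of each other.

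The comparison of the forms of Vnn1 asked whether complement genes depended on catalytic activity. Between VR and VdR tumors 0 of the 8 genes were called by limma, where 1.77% of all genes tested were called higher in VR and 1.67% lower. At an unadjusted p under 0.05, 0 of the 8 were higher in VR tumors and 4 were lower, which were C1qa, C1qb, C1qc and C5ar1, where 1645 of all 16573 genes were higher and 1537 lower at that threshold. The methods' t-test, which the study names for qRT-PCR, called 0 of the 8 with Benjamini-Hochberg adjustment. Over all 16573 genes it called only 12 higher and 18 lower, so it could hardly call any of the 8. The median log2 difference was -0.17 for the complement genes and -0.02 for all genes, and 0 of the 19 macrophage markers were called. The log2 differences of the 8 genes ran from -0.43 for C1qc to 0.67 for Cfb.

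**Figure D1:**
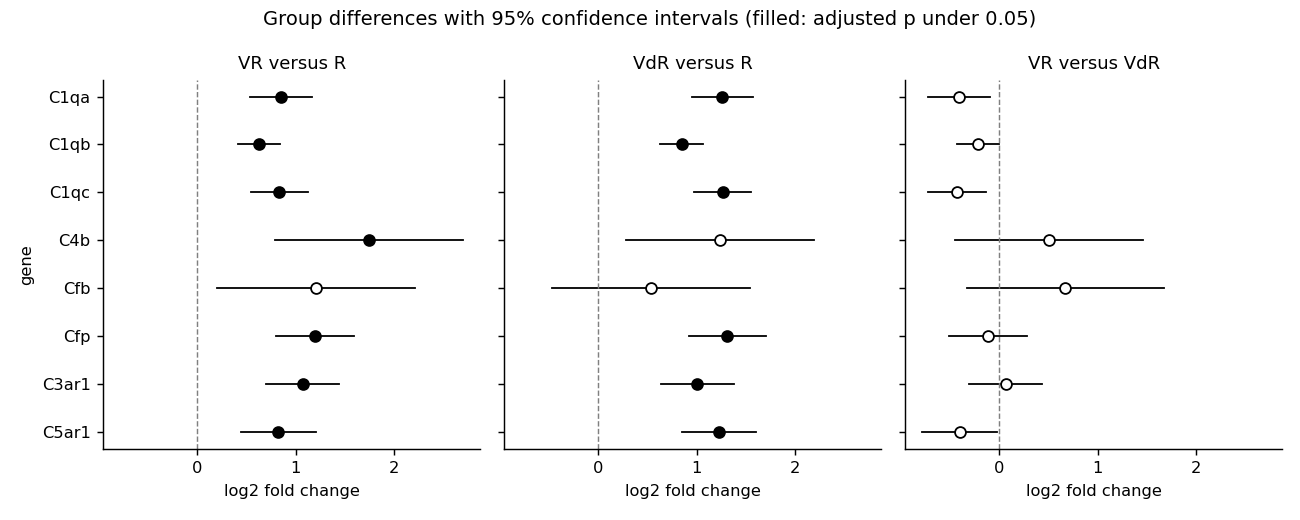
Each point is the log2 fold change (x axis) of a complement gene (y axis) in 1 of the 3 comparisons, and the bar is its 95% confidence interval from limma over 12 tumors; filled points have a Benjamini-Hochberg adjusted p under 0.05. The points of VR versus R and VdR versus R lie right of 0 for all 8 genes, 7 and 6 of them filled, whereas no point of VR versus VdR is filled.

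C1qa, C1qb and C1qc encode the A, B and C chains of C1q, the recognition molecule of the classical pathway, and are assembled into the same protein. C1qa had log2 values of 9.69, 10.14, 9.71 and 10.01 in R tumors 1, 2, 4 and 5, of 10.99, 11.17, 11.57 and 10.87 in the VdR tumors and of 10.58, 10.73, 10.79 and 10.88 in the VR tumors. Every VdR and VR tumor lay above every R tumor, and the highest VR tumor reached into the VdR range. For C1qa the log2 fold change was 0.85 (SE 0.14, limma adjusted p = 0.00174) in VR versus R and 1.26 (SE 0.14, limma adjusted p = 2.50e-04) in VdR versus R.

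For C1qb, the log2 values were 11.23, 11.73, 11.43 and 11.58 in the R group, against 12.20, 12.36, 12.50 and 12.30 in the VdR group and 12.22, 12.11, 12.02 and 12.14 in the VR group. Its R tumors again lay below all others, while VR tumor 1 was just above the lowest VdR tumor. C1qb had a log2 fold change of 0.63 (SE 0.10, limma adjusted p = 0.00115) in VR versus R and 0.85 (SE 0.10, limma adjusted p = 2.95e-04) in VdR versus R.

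For C1qc, the log2 values were 10.05, 10.61, 10.33 and 10.35 in the R group, against 11.34, 11.57, 11.99 and 11.50 in the VdR group and 11.10, 11.23, 11.11 and 11.24 in the VR group. The 3 groups of C1qc did not overlap, with R lowest, VR between and VdR highest. By limma, C1qc had a log2 fold change of 0.84 (SE 0.13, limma adjusted p = 0.00131) in VR versus R and 1.27 (SE 0.13, limma adjusted p = 1.67e-04) in VdR versus R. Between VR and VdR tumors its log2 difference was -0.43 (95% confidence interval -0.72 to -0.14), which was not called (limma adjusted p = 0.0973).

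C1qa and C1qb had intervals of the same sign in VR versus VdR, from -0.72 to -0.10 and from -0.43 to -0.0010, and adjusted p of 0.138 and 0.259 by limma. VdR tumor 4 held the highest value of all 3 chains, and was also the tumor with the highest macrophage score. The spread between VR tumors was small for the C1q chains, with SDs of 0.07 to 0.13 (n = 4) against 0.21 to 0.23 in R tumors and 0.12 to 0.30 in VdR tumors.

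C4b encodes complement C4, which the C1 complex cleaves after C1q has bound. Its log2 values were 8.24, 7.92, 6.50 and 6.69 in the R group, against 8.79, 8.66, 9.14 and 7.72 in the VdR group and 8.52, 9.85, 9.48 and 8.51 in the VR group. R tumors 4 and 5 were more than 1 log2 unit below R tumors 1 and 2. VR and R tumors did not overlap, but VdR tumor 5 lay below both high R tumors. C4b had a log2 fold change of 1.75 (SE 0.44, limma adjusted p = 0.0147) in VR versus R, and leaving out 1 tumor at a time gave 1.47 to 2.05 with adjusted p of 0.0102 to 0.0484. In VdR versus R it was 1.24 (95% confidence interval 0.28 to 2.20), which was not called (limma adjusted p = 0.106). VR and VdR tumors differed by 0.51 (-0.45 to 1.47, limma adjusted p = 0.586), so a difference of either sign lies within the interval, and the value was 0.22 without VdR tumor 5 and 0.26 without VR tumor 2. C4a, the near-identical neighbour copy, can share probe signal with C4b, so values of both are uncertain, and C4a had a log2 fold change of 0.22 in VR versus R (limma adjusted p = 0.0757).

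Cfb encodes factor B, which carries the protease of the alternative pathway convertase. Its log2 values were 7.84, 7.28, 7.36 and 7.38 in the R group, against 8.75, 7.52, 8.20 and 7.55 in the VdR group and 8.01, 9.99, 9.25 and 7.44 in the VR group. VR tumors 2 and 4 stood above all other tumors, whereas VR tumor 5 was as low as the R tumors. Between tumors of 1 group Cfb had an SD of 0.26 for R, 0.59 for VdR and 1.16 for VR (n = 4 each), the last being the largest SD of the 8 genes. Cfb differed by a log2 fold change of 1.21 in VR versus R (95% confidence interval 0.20 to 2.21, limma adjusted p = 0.0838). It was 1.62 without VR tumor 5, where it was called (limma adjusted p = 0.0194), and 0.77 without VR tumor 2 (limma adjusted p = 0.220). Cfb differed by 0.54 in VdR versus R (-0.47 to 1.54, limma adjusted p = 0.544) and by 0.67 in VR versus VdR (-0.33 to 1.67, limma adjusted p = 0.476), the latter being 0.23 without VR tumor 2 and 1.08 without VR tumor 5.

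Cfp encodes properdin, which stabilizes the alternative pathway convertase. Its log2 values were 9.11, 9.44, 8.65 and 9.51 in the R group, against 10.57, 10.69, 10.49 and 10.23 in the VdR group and 10.69, 10.40, 10.37 and 10.06 in the VR group. All VdR and VR tumors lay above the R tumors, and the VdR and VR ranges covered each other almost fully. Cfp had a log2 fold change of 1.20 (SE 0.18, limma adjusted p = 9.59e-04) in VR versus R and 1.32 (SE 0.18, limma adjusted p = 8.63e-04) in VdR versus R. Between VR and VdR it was -0.12 (95% confidence interval -0.51 to 0.28, limma adjusted p = 0.778). Both alternative pathway genes therefore had similar mean differences in VR versus R, 1.20 for Cfp and 1.21 for Cfb, but SEs of 0.18 and 0.46.

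C3ar1 and C5ar1 encode the G protein-coupled receptors for the fragments C3a and C5a. C3ar1 had log2 values of 10.12, 10.74, 10.00 and 10.49 in the R group, against 11.49, 11.35, 11.40 and 11.13 in the VdR group and 11.58, 11.73, 11.22 and 11.11 in the VR group. The R tumors were lowest, and the VR and VdR tumors overlapped. C3ar1 had a log2 fold change of 1.07 (SE 0.17, limma adjusted p = 0.00126) in VR versus R, 1.01 (SE 0.17, limma adjusted p = 0.00318) in VdR versus R and 0.07 in VR versus VdR (95% confidence interval -0.30 to 0.44, limma adjusted p = 0.874).

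For C5ar1, the log2 values were 7.91, 8.60, 7.98 and 8.39 in the R group, against 9.39, 9.59, 9.36 and 9.45 in the VdR group and 9.40, 9.10, 8.57 and 9.11 in the VR group. VR tumor 4 was just below R tumor 2, so the VR and R groups of C5ar1 overlapped. The 4 VdR tumors lay within a narrow range above all R tumors (SD 0.10, n = 4). C5ar1 had a log2 fold change of 0.82 (SE 0.17, limma adjusted p = 0.00619) in VR versus R and 1.23 (SE 0.17, limma adjusted p = 0.00106) in VdR versus R. In VR versus VdR it was -0.40 (95% confidence interval -0.78 to -0.02), which was not called (limma adjusted p = 0.232).

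**Figure D2:**
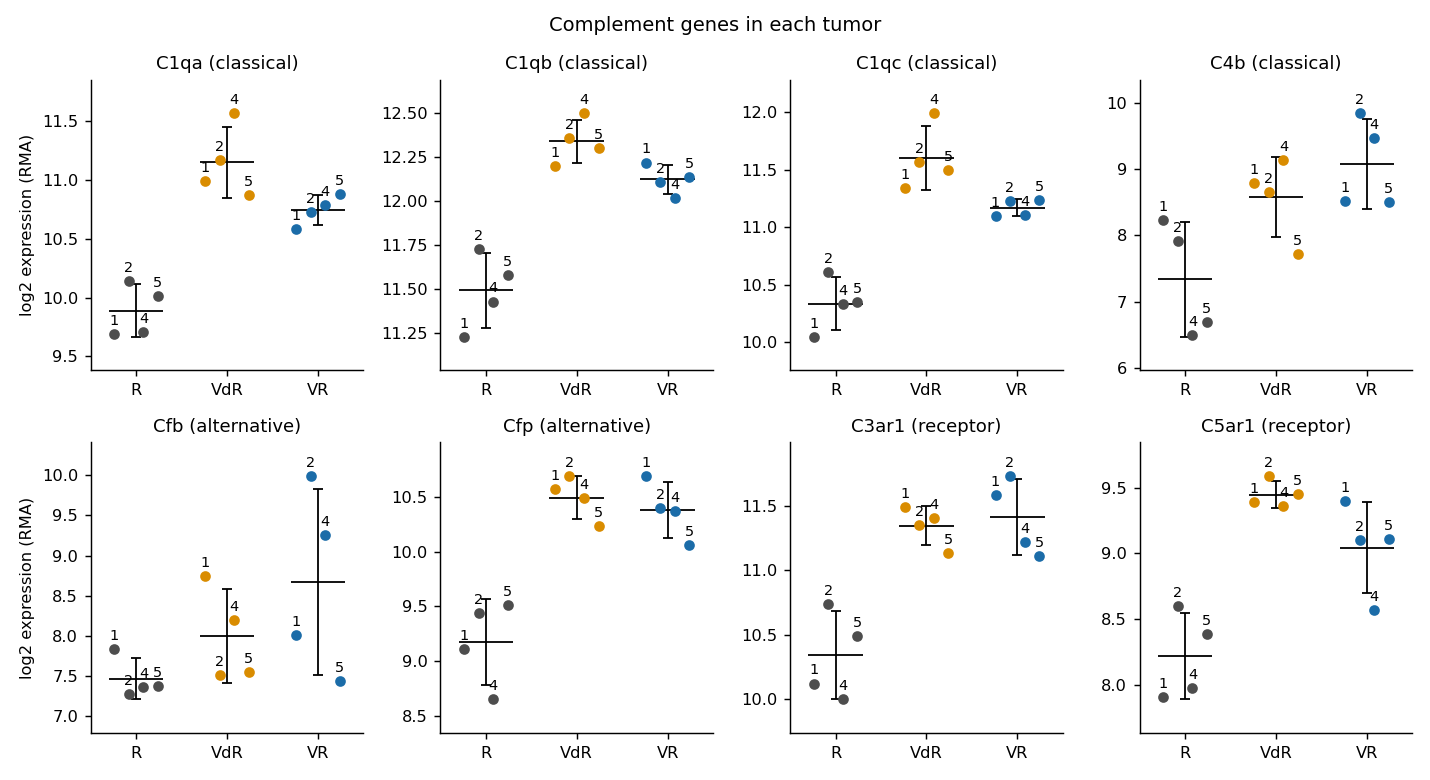
Each panel gives the log2 expression value (y axis, RMA) of 1 gene in the 12 tumors, as 1 point per tumor with its number, by group (x axis), with the group mean as a long bar and the SD as whiskers (n = 4); each panel has its own y range. C1qa, C1qb, C1qc, Cfp and C3ar1 have all R tumors below all others, whereas Cfb is highest in VR tumors 2 and 4 and R tumors 4 and 5 are low for C4b.

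By class, the median log2 fold change in VR versus R was 0.84 over the 4 classical genes, 1.20 over the 2 alternative genes and 0.95 over the 2 receptors. In VdR versus R the medians were 1.25, 0.93 and 1.12 in the same order. In VR versus VdR they were -0.31, 0.28 and -0.17, with 1 of 4 classical genes, 1 of 2 alternative genes and 1 of 2 receptors positive. Classes of 2 to 4 genes were not tested against each other, and within each class the genes differed among themselves, as C4b from the C1q chains and Cfb from Cfp.

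The genes also differed in how they varied between tumors of the same group. With group means removed, Pearson r over the 12 tumors was 0.69 for C1qa with C1qb, 0.86 for C1qa with C1qc and 0.84 for C1qb with C1qc. Cfp went with the receptors, with r of 0.79 to C3ar1 and 0.57 to C5ar1, and the receptors with each other at 0.67. C4b and Cfb, which lie near each other on chromosome 17 with 5 protein-coding genes between, had an r of 0.66. Cfb had an r of 0.12 to Cfp, of -0.35 to -0.05 to the C1q chains and of -0.42 to C5ar1. These values are descriptions over 12 points, which share arrays, tissue composition and normalization between genes.

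**Figure D3:**
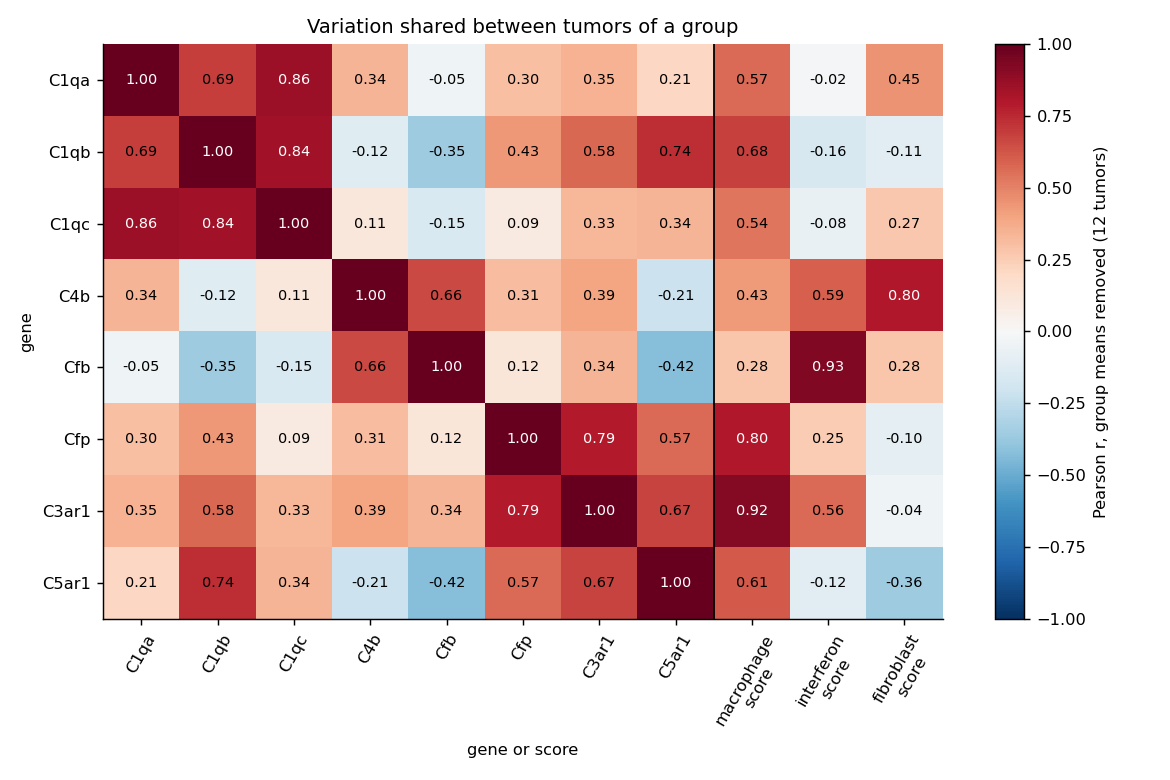
Pearson r over 12 tumors, with the mean of each group removed, between complement genes (rows) and complement genes or marker scores (columns, right of the line); red is positive and blue negative. The C1q chains form a block of 0.69 to 0.86, Cfb reaches 0.93 with the interferon score, and C3ar1 reaches 0.92 with the macrophage score.

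Lists of marker genes were set beside these patterns. The macrophage score, the mean log2 value of 19 markers, had r (group means removed, 12 tumors) of 0.92 to C3ar1, 0.80 to Cfp, 0.68 to C1qb, 0.61 to C5ar1, 0.57 to C1qa, 0.54 to C1qc, 0.43 to C4b and 0.28 to Cfb. The score of 21 interferon-stimulated genes was 7.004 to 7.452 in the R group, against 7.40 to 8.40 in the VdR group and 7.54 to 9.54 in the VR group, and VR tumors 2 and 4, the highest for Cfb, were also the highest for this score at 9.54 and 8.45. Its r was 0.93 to Cfb, 0.59 to C4b, 0.56 to C3ar1, 0.25 to Cfp and -0.16 to -0.02 to the C1q chains. Of these interferon-stimulated genes 11 were called higher in VR versus R, 3 in VdR versus R and 0 in VR versus VdR. The score of 12 myofibroblast and fibroblast markers was 10.84 to 11.21 in the R group, against 11.04 to 11.30 in the VdR group and 11.36 to 11.68 in the VR group, with an r of 0.80 to C4b. All 12 of these markers passed the filter, as the label of the tissue as myofibroblast tumors would have it, and 8 were called higher in VR versus R, 0 in VdR versus R and 3 in VR versus VdR. The part of these cell types and responses in the complement differences was not tested.

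**Figure D4:**
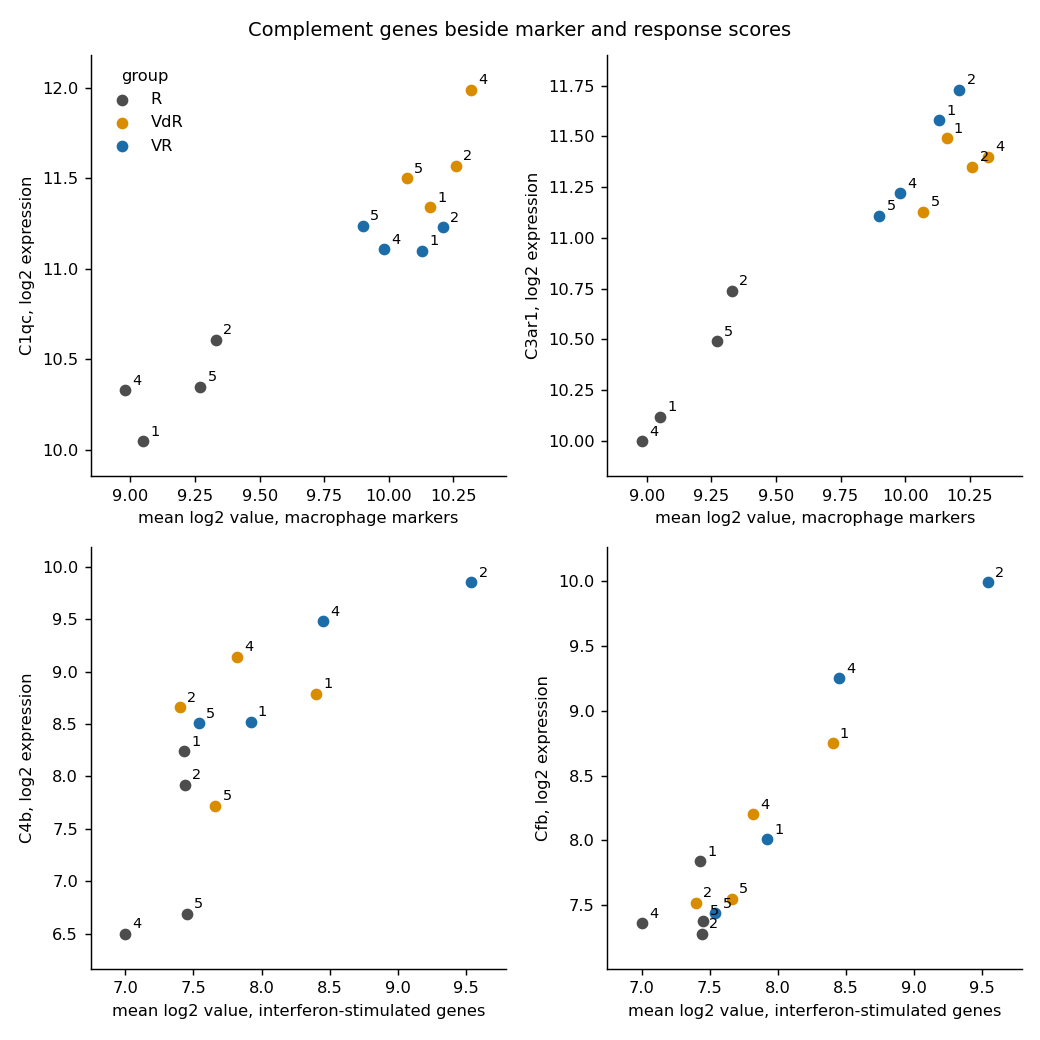
Log2 value (y axis) of C1qc and C3ar1 against the macrophage score (x axis, upper panels) and of C4b and Cfb against the interferon score (x axis, lower panels), 1 point per tumor with its number, coloured by group. R tumors lie apart on the macrophage score, and VR tumors 2 and 4 lie at the upper right for Cfb.

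Other cell types a tumor could hold were checked in the same way. Of the 9 dendritic cell markers 7 were called higher in VR versus R, 1 in VdR versus R and 4 in VR versus VdR, with a mean log2 value of 6.44 to 6.53 in the R group, against 6.62 to 6.87 in the VdR group and 6.94 to 7.33 in the VR group. Of 12 neutrophil markers 6 were below the filter in the tumors, S100a8, Ly6g, Ngp, Cxcr2, Retnlg and Mmp8, and the mean of the list was 5.92 to 6.31. Of 6 hepatocyte markers, the cell type that makes most plasma complement, 0 were called in any comparison, with a mean of 5.76 to 6.33 near the low end of the arrays. Of the acute phase and NF-kB response genes 14 were tested, of which 2 were called higher and 1 lower in VR versus R and 2 higher in VdR versus R. The NK cell markers had a mean of 6.33 to 6.59 in the R group, against 6.97 to 7.15 in the VdR group and 7.13 to 7.41 in the VR group. R tumors thus lay below all others here too. Of 7 NK cell markers Klrb1c, Klra8 and Gzma were below the filter, and of the 4 tested 2 were called higher in VdR versus R and 1 in VR versus VdR. Calls in VR versus R were 2 of 4 tested NK cell markers, 2 of 9 endothelial, 1 of 7 mast cell, 1 of 6 adipocyte and 1 of 6 tested neutrophil markers, all higher, and 0 of 5 keratinocyte markers. Of 8 T and B cell markers 4 were below the filter, and of the 4 tested 1 was called higher and 1 lower. Of all genes tested, 13.6% were called higher in VR versus R, 6.58% in VdR versus R and 1.77% in VR versus VdR. The counts of all marker lists stand beside these shares, and 1 of 7 or 1 of 6 in VR versus R lies near the first. The parts of dendritic and other cells in the result were not tested.

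To set each complement gene beside macrophage content, its log2 value minus the macrophage score of the same tumor was compared between groups. Over 8 genes and 3 comparisons, 24 two-sided exact permutation tests of 4 tumors against 4 gave a lowest p of 0.0571, where 0.0286 is the smallest possible, and a lowest Benjamini-Hochberg adjusted p of 0.343. None of the 24 passed, which does not show that the genes and the score moved equally. A single test at the smallest possible p would not pass after adjustment over 24 tests, so these tests could hardly find a difference. On this scale C4b differed by 0.85 in VR versus R (exact permutation p = 0.143), Cfp by 0.30 (exact permutation p = 0.114) and Cfb by 0.31 (exact permutation p = 0.629), whereas C1qa and C1qc differed by -0.04 and -0.06. The lowest p (exact permutation p = 0.0571) came from 3 tests, of which none passed after adjustment. These were C1qb in VR versus R (-0.27) and in VdR versus R (-0.20), and C1qa in VdR versus R in the opposite direction (0.22). In VR versus VdR, C1qc differed by -0.28 and C3ar1 by 0.22 (exact permutation p = 0.0857 each), that is in opposite directions.

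For each complement gene the 3 most similar genes over the 12 tumors were listed, by Pearson r, which takes in differences between groups as well as within them. C1qa was most similar to Hfe (r = 0.98), Apoe (0.97) and Cx3cr1 (0.96), with r of 0.82, 0.84 and 0.72 after group means were removed. C1qc also had Apoe and Hfe (both 0.98), with Cd33 (0.97). C1qb was most similar to Cx3cr1 (r = 0.99), Cd33 (0.98) and Ms4a7 (0.97). Apoe encodes apolipoprotein E, Cx3cr1 the fractalkine receptor, and Cd33 a sialic acid-binding receptor of myeloid cells. Cx3cr1 and Ms4a7 are also in the list of macrophage markers.

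Cfp was most similar to Clec4a2, a C-type lectin receptor (r = 0.99, 0.96 with group means removed), Cyth4 and Ms4a6b (both 0.99, with 0.95 and 0.91 with means removed). C3ar1 went with Ms4a6c, Laptm5 and Cd53 (r = 0.98 each), of which Laptm5 is also in the list of macrophage markers. C5ar1 went with P2ry13, Hpgds and P2ry12 (0.97, 0.96 and 0.96), of which P2ry12 and P2ry13 are purinergic receptors. C4b and Cfb had other partners. C4b was most similar to Ifi27, Serping1 and Crip2 (0.94 each), with r of 0.88, 0.95 and 0.87 after removal of group means. Cfb was most similar to Cd300lf, Irf7 and Trim34a (0.97, 0.97 and 0.96), with 0.96, 0.95 and 0.97 after removal, where Irf7, which is also in the list of interferon-stimulated genes, drives interferon genes and Serping1 is the C1 inhibitor.

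The rest of the complement system was described from a list of 51 genes with a probeset, of which 40 passed the filter. In VR versus R 10 of 40 were called higher and 0 lower, in VdR versus R 5 higher and 0 lower, and in VR versus VdR 1 higher and 1 lower. These counts stand beside the 13.6%, 6.58% and 1.77% of all genes tested that were called higher in the same comparisons, and the list had median log2 fold changes of 0.12, 0.02 and 0.01. Higher calls in VR versus R were 4 of 17 genes of classical and lectin initiation, 0 of 5 of the terminal pathway, 3 of 10 regulators and 3 of 8 receptors. In VdR versus R they were 2, 0, 0 and 3 in the same order.

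C1ra and C1s1, the serine proteases that join C1q in the C1 complex, differed from the C1q chains in their order of groups. C1ra was 6.28, 6.59, 6.00 and 6.00 in the R group, against 6.07 to 7.15 in the VdR group and 7.13, 8.72, 8.45 and 7.76 in the VR group. C1s1 was 7.18, 8.02, 7.05 and 7.06 in the R group, against 8.47, 8.27, 7.75 and 7.24 in the VdR group and 8.24, 9.79, 9.61 and 9.44 in the VR group. For both, VR tumors 2, 4 and 5 lay above all other tumors and VR tumor 1 lay within the VdR range. In VR versus R the log2 fold changes were 1.80 for C1ra (limma adjusted p = 0.00224) and 1.94 for C1s1 (limma adjusted p = 0.00253). In VdR versus R they were 0.55 and 0.61 (limma adjusted p = 0.338 and 0.339), and in VR versus VdR 1.25 and 1.34 (limma adjusted p = 0.0516 and 0.0568), so neither was called in those comparisons.

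C1ql3, which encodes a secreted protein with a C1q domain known from synapses rather than from the cascade, rose by 1.86 in VR versus R (limma adjusted p = 9.79e-04) and by 1.08 in VdR versus R (limma adjusted p = 0.0320). C1ql1 of the same family was the only one of the 40 genes called lower, by -0.69 in VR versus VdR (limma adjusted p = 0.0175), and Colec12, a scavenger receptor with a collectin domain, the only one called higher there (0.56, limma adjusted p = 0.0419). Colec12 was singled out after its values were seen. C2, which lies next to Cfb and works in the classical pathway, had a log2 fold change of -0.01 in VR versus R and 0.03 in VdR versus R, with values of 5.95 to 6.94 over the 12 tumors.

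Among the regulators, Serping1, the inhibitor of C1r and C1s, was 9.84, 9.72, 8.65 and 8.83 in the R group, against 9.99, 10.09, 10.00 and 9.26 in the VdR group and 9.97, 11.42, 11.17 and 10.44 in the VR group. As for C4b, R tumors 4 and 5 were lowest and VR tumors 2 and 4 highest. Serping1 rose by 1.49 in VR versus R (limma adjusted p = 0.00945), and its differences of 0.57 in VdR versus R and 0.92 in VR versus VdR were not called (limma adjusted p = 0.356 and 0.164). Cd59a, which blocks the membrane attack complex, rose by 0.75 in VR versus R (limma adjusted p = 0.0154), and Cd55, which speeds the decay of convertases, by 0.44 (limma adjusted p = 0.0486), with R tumors at 5.09 to 5.58, around the filter of 5.38, so the size of that difference is uncertain. Vtn, vitronectin, differed by 0.49 (limma adjusted p = 0.0606), and Susd4 by 0.00.

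Among the receptors, Itgam and Itgb2, the chains of complement receptor 3 of myeloid cells, had the smallest adjusted p of the list. Itgam rose by 1.46 in VR versus R (limma adjusted p = 2.87e-04) and by 1.73 in VdR versus R (limma adjusted p = 1.57e-04), and Itgb2 by 0.81 (limma adjusted p = 2.38e-04) and 0.80 (limma adjusted p = 3.35e-04). In VR versus VdR their differences were -0.27 and 0.01 (limma adjusted p = 0.459 and 0.964). Cd93 rose by 0.39 in VR versus R (limma adjusted p = 0.0272), and C5ar2, the other C5a receptor, by 0.39 in VdR versus R (limma adjusted p = 0.0482). Cd209b, a C-type lectin, was not called in any comparison. The terminal pathway genes C7, C8a, C8b, C8g and Hc, the mouse C5 gene, were not called in any comparison either, with log2 fold changes of -0.14 to 0.16 in VR versus R and log2 values of 5.26 to 6.09 over the 12 tumors, beside the filter of 5.38.

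**Figure D5:**
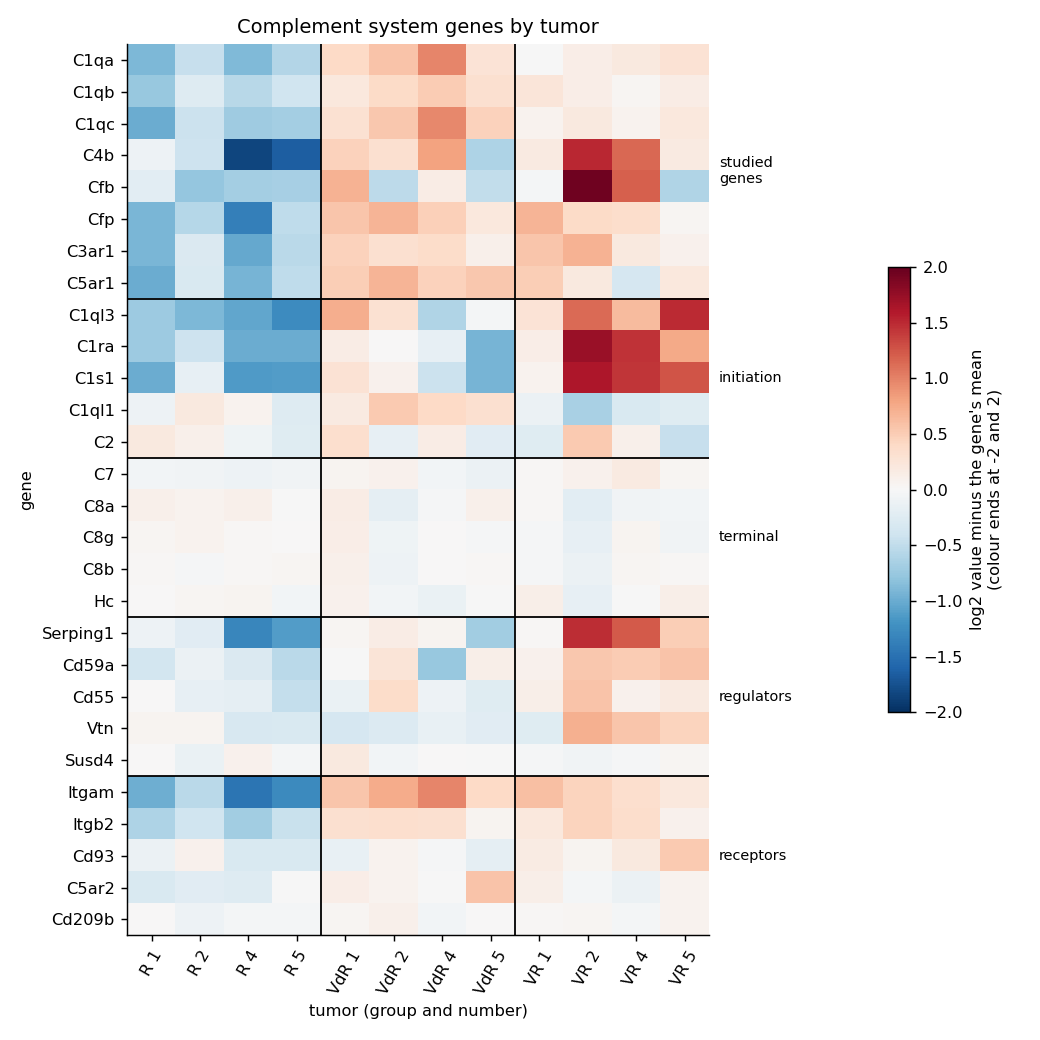
Log2 value of each gene (rows) in each of the 12 tumors (columns) minus the mean of the gene over all tumors, with the complement genes studied at the top and named genes of the other roles under them; the colour scale ends at -2 and 2. C1q chains, Cfp, the receptors, Itgam and Itgb2 are low in R and high in both other groups, whereas C1ra, C1s1 and Serping1 are highest in VR tumors 2 and 4, and the terminal genes show little change.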

How the data were processed

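RNA of 12 tumors, 4 each of R, VdR and VR, was measured on Affymetrix mouse gene arrays. The authors deposited log2 expression per probeset, made by joint RMA normalization of the arrays with oligo, both named without a version in the submitters' processing notes. RMA sets all arrays to 1 distribution, so a change in total RNA cannot be seen. Batch, scan date and genome build are not given in the sources used here. Groups and tumor numbers came from the sample titles.

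The platform annotation, which can be old, names 1 symbol for 21789 of 35556 probesets, several for 1621 and none for 12146. The highest-mean probeset represented each of 19938 genes, and 16573 genes were tested, those that exceeded 5.38 (the 25th percentile of the table) on 4 arrays or more. The fit used limma 3.58.1 under R 4.3.3 (lmFit, then eBayes) over 12 arrays with 1 coefficient per group and Benjamini-Hochberg adjustment over all genes at 0.05. The test was checked on simulated data. The number of arrays limits the precision.

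The complement genes and all lists were chosen with earlier results of these data known. Named were all measured complement genes and, of the other complement genes of each role, the up to 4 with the lowest adjusted p and the 1 with the highest; genes outside this rule are marked as such or stand beside a neighbour or copy. Scores are means of the log2 values of a list. Correlations are Pearson r without p-values. Alternatives were the mean of probesets, no or a stricter filter, trended robust moderation, array weights, cyclic loess, median centring, the tumor number as replicate block, only the groups compared, the methods' t-test, which is named for qRT-PCR, a minimum of 1.5-fold, the macrophage score as covariate, and leaving out each tumor. No column of the deposited table was left unused.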

Additional observations from a re-analysis of the deposited data

How the results depend on the processing

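The counts of 7, 6 and 0 called complement genes held under every alternative run except 3. With the methods' t-test they were 5, 5 and 0, with C4b (adjusted p = 0.0897) and C5ar1 (0.0742) lost in VR versus R and C3ar1 (0.0523) in VdR versus R. Without VR tumor 5, 8 were called in VR versus R. With the macrophage score as covariate 0 were called in VR versus R and 0 in VdR versus R, where the scores of R do not overlap those of the other groups. In that fit the log2 fold changes in VR versus R turned to -0.016 for C1qb, -0.21 for C4b, -0.11 for Cfb, -0.29 for Cfp, -0.52 for C3ar1 and -0.26 for C5ar1. In VdR versus R they turned to -1.04 for C4b, -1.004 for Cfb, -0.42 for Cfp, -0.85 for C3ar1 and -0.042 for C5ar1. Cfp in VR versus VdR turned to 0.13 (SE 0.13). For the genes that turned, the SEs were 0.25 (C3ar1) to 1.45 (Cfb) in VR versus R. In VdR versus R the SEs were 0.28 (C3ar1) to 1.67 (Cfb). Against R, only C3ar1 of these genes differed by more than its SE, with limma adjusted p of 0.631 and 0.635. The R scores lie apart, so this fit hardly separates score from group and does not show that these genes reverse. C3ar1 in VR versus VdR ranged from -0.041 (without VR tumor 2) to 0.17 with 1 tumor left out, and was -0.0034 without VdR tumor 5. The cause was not tested.

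The counts over all genes, higher and lower, were 2261 and 1239 in VR versus R, 1090 and 465 in VdR versus R, and 293 and 277 in VR versus VdR. With a minimum of 1.5-fold they were 729 and 238, 378 and 118, and 82 and 43. With the methods' t-test they were 1448 and 672, 391 and 102, and 12 and 18, and with the macrophage covariate 4 and 20, 1 and 0, and 164 and 162. Array weights gave 3346 and 2321 in VR versus R, 1757 and 838 in VdR versus R, and 455 and 429 in VR versus VdR. Cyclic loess gave 932 and 648 in VdR versus R and 427 and 304 in VR versus VdR, and median centring gave 255 and 152 in VR versus VdR. With 1 tumor left out, lower calls in VR versus R ranged from 776 (without R tumor 4; 817 without VR tumor 2) to 1311, higher calls in VdR versus R from 684 (without VdR tumor 2, with R tumors 1 and 4 close to it) to 1283 and lower calls from 248 (without R tumor 4, and nearly as low without R tumor 1, VdR tumor 1 or VdR tumor 2) to 530, and in VR versus VdR higher calls from 32 to 320 and lower calls from 54 to 234, both lowest without VR tumor 4.

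With the tumor number as replicate block the complement counts were again 7, 6 and 0, and the counts over all genes 2421 and 1506, 1121 and 533, and 304 and 317. Deviations of 12 same-numbered pairs of tumors correlated at -0.15 to 0.40, with 8 pairs above 0.1, beside 11 of 36 pairs with different numbers. Neither the labels nor the study say what a number shares, and since not every same-numbered pair was above 0.1 the tumors were analysed as unpaired, which does not show that the numbers share nothing. Of the values relative to the macrophage score, C1qb in VR versus R moved to -0.41 with the median of the markers. Signal over background limits genes near the filter, such as Cd55 in R tumors.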
